A study of Mus musculus with 10 samples.

Results

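Bile acid synthesis and transport genes were followed across 3 kinds of mouse liver tissue, namely normal liver (NL, n = 4), c-MYC tumors (n = 3) and c-MYC/FOXO1AAA tumors (n = 3). The 10 genes were taken by symbol, by a rule that uses no measured value: Cyp7a1, Cyp7b1, Cyp8b1, Cyp27a1, Akr1d1, Hsd3b7, Slc27a5, Baat, Slc10a1 and Abcb11. Earlier results of these data were known when the genes were chosen. Rows for 9 of the 10 were present among 16697 gene entries, and Hsd3b7 was not analysed here. All 9 genes reached at least 1 FPKM in at least 3 libraries, as did 14017 genes in all, and these were tested. FPKM are fragments per kilobase and per unit of library size, so that levels are scaled to gene length and to library size.

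Both tumor groups were made in wild-type mice by hydrodynamic tail vein injection, which brings plasmids into a part of the hepatocytes. The c-MYC tumors received the c-MYC oncogene with the empty pT3 vector. The c-MYC/FOXO1AAA tumors received c-MYC with FOXO1AAA, a form of the transcription factor FOXO1 that AKT cannot switch off, carried by a plasmid with the EF1α promoter. The normal livers received no oncogene. The methods of the study and the extraction protocol name FVB normal livers, and the methods name c-MYC with pT3 and no further oncogene for the control tumors. Against this, the sample characteristics give the strain as C57BL/6, and 1 figure legend of the study names MCL1 beside c-MYC for the control mice. Age, sex and time after injection are not given for single samples. The methods of the study give the numbers of tumor samples as injected mice, so the p-values measure the spread between animals as far as each library is 1 mouse.

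Bile acids are made from cholesterol by hepatocytes. In the classic route Cyp7a1 takes the first and rate-limiting step and Cyp8b1 adds the hydroxyl group that leads to cholic acid, while in the alternative route Cyp27a1 oxidizes the side chain and Cyp7b1 then hydroxylates the ring. Akr1d1 reduces the steroid ring, Slc27a5 joins the bile acid to coenzyme A, and Baat links it to taurine or glycine. Slc10a1 (NTCP) takes conjugated bile acids up from the blood, and Abcb11 (BSEP) pumps them into the bile canaliculus. In bulk tissue, fewer hepatocytes and less RNA per hepatocyte cannot be told apart.

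The libraries held 13123712 to 20547739 reads in the listed genes. The factor by which the authors had scaled each library size lay between 0.649 and 0.684 in NL, between 1.26 and 1.29 in c-MYC and between 1.454 and 1.502 in c-MYC/FOXO1AAA. Foxo1, which checks the labels, stood at 7.17, 6.69, 7.87 and 6.82 FPKM in NL, at 5.26, 6.46 and 5.17 FPKM in c-MYC and at 95.6, 83.6 and 70.1 FPKM in c-MYC/FOXO1AAA. All 3 libraries with FOXO1AAA were thus set apart as labelled, at 3.88 on the log2 scale above c-MYC (standard error 0.14, adjusted p = 3.4e-08 by limma). Replicates were not duplicates of each other, since their counts differed by a chi-square per degree of freedom of at least 9.36.

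In normal liver, the genes of conjugation, uptake and side chain oxidation had the highest levels next to Cyp7a1. Slc27a5 (chromosome 7, 12988346 to 12998192, minus strand) stood at 603 FPKM ± 18.9 (SD, n = 4), Slc10a1 (chromosome 12, 80953183 to 80968705, minus strand) at 574 FPKM ± 47.0 (SD, n = 4) and Cyp27a1 (chromosome 1, 74713574 to 74737892, plus strand) at 410 FPKM ± 32.3 (SD, n = 4). Baat (chromosome 4, 49489422 to 49506557, minus strand) stood at 304 FPKM ± 19.2 (SD, n = 4) and Cyp8b1 (chromosome 9, 121914356 to 121916305, minus strand) at 276 FPKM ± 68.8 (SD, n = 4). Lower levels were those of Cyp7b1 (chromosome 3, 18071950 to 18243338, minus strand) at 168 FPKM ± 19.99 (SD, n = 4), Akr1d1 (chromosome 6, 37530173 to 37568815, plus strand) at 100.2 FPKM ± 9.03 (SD, n = 4) and Abcb11 (chromosome 2, 69238282 to 69342616, minus strand) at 52.2 FPKM ± 5.71 (SD, n = 4). Positions follow the GENCODE annotation M21 on GRCm38. In this order of levels, the libraries of Slc27a5 and Slc10a1 overlapped, as did those of Baat and Cyp8b1, and the libraries of all other neighbors did not.

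The place of Cyp7a1 (chromosome 4, 6265612 to 6275633, minus strand) in this order depends on the gene length. Its deposited level was the highest of the 9 genes, at 1372 FPKM ± 418 (SD, n = 4). The length behind the deposited values is 228 bp, which is that of a short annotated transcript, whereas the longest annotated transcript has 4172 bp. On the longer transcript the level of Cyp7a1 in NL would be 75.0 FPKM ± 22.9 (SD, n = 4), which is 18.3-fold lower and places it 8th of 9, with Abcb11 alone below it. Baat would drop from 304 to 198 FPKM when scaled to 1941 bp in place of 1263 bp, and Slc10a1 to 549 FPKM when scaled to 1749 bp in place of 1674 bp. The other 6 genes had been scaled to their longest transcript. Gene length cancels when the same gene is compared between groups, so no fold change given here is touched by it.

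The first comparison asked how the bile acid genes of c-MYC tumors differ from those of normal liver. All 9 genes were lower in c-MYC, against 23.6% of all genes tested that were called lower and 48.1% called in either direction. A gene was called when limma found a change above 1.5-fold at a Benjamini-Hochberg adjusted p under 0.05. The libraries of the 2 groups did not overlap for any of the 9 genes, with c-MYC below NL in each, as was the case for 34.9% of all genes. The median log2 fold change of the 9 genes was -5.68, beside 0.08 over all genes tested.

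The classic route was represented by 2 genes. Cyp7a1 stood at 1117, 1153, 1996 and 1223 FPKM in NL and at 17.5, 79.0 and 15.1 FPKM in c-MYC. The library c-MYC 2 was the highest of its group by far, and the log2 fold change was -5.60 (standard error 0.55, adjusted p = 1.37e-05 by limma) with it and -6.36 without it. Cyp8b1 stood at 217, 362, 301 and 224 FPKM in NL and at 2.69, 4.498 and 1.68 FPKM in c-MYC. The difference from NL was -6.63 in log2 (standard error 0.32, adjusted p = 7.46e-08 by limma).

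The alternative route held the gene that fell furthest. Cyp7b1 stood at 177, 139, 184 and 171 FPKM in NL and at 0.281, 0.0792 and 0.482 FPKM in c-MYC. These c-MYC values rest on 9, 1 and 17 reads, beside 2833 to 4244 reads in each NL library. On the log2 scale Cyp7b1 differed from NL by -9.56 (standard error 0.47, adjusted p = 7.52e-08 by limma) and was -8.82 without c-MYC 2, the library with 1 read. The deposited log2 values hold an added prior count, so the ratio was also taken from the pooled reads alone, where NL was 750-fold higher than c-MYC with a 95% interval from 515 to 1138 that covers the counting error of the 27 c-MYC reads only. Cyp27a1, which precedes it in the route, stood at 437, 383, 440 and 382 FPKM in NL and at 7.38, 6.88 and 10.05 FPKM in c-MYC. Its difference from NL was -5.68 in log2 (standard error 0.15, adjusted p = 1.26e-09 by limma).

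The enzymes that complete and conjugate the bile acid differed in how far they fell. Slc27a5 stood at 592, 609, 627 and 585 FPKM in NL and at 1.34, 2.39 and 3.69 FPKM in c-MYC, a difference of -8.05 in log2 (standard error 0.28, adjusted p = 6.79e-09 by limma). Baat stood at 280, 323, 316 and 296 FPKM in NL and at 1.95, 2.03 and 2.68 FPKM in c-MYC, a difference of -7.11 in log2 (standard error 0.17, adjusted p = 5.65e-10 by limma). Both conjugation genes were thus left at under 1% of their NL mean, at 0.41% for Slc27a5 and 0.73% for Baat. Akr1d1 fell least of the 9 genes. It stood at 97.1, 113, 97.6 and 92.8 FPKM in NL and at 23.0, 21.3 and 35.0 FPKM in c-MYC, which left 26.4% of the NL mean, and its log2 fold change was -1.96 (standard error 0.48, adjusted p = 0.0201 by limma). This call was lost when c-MYC 1 was left out (adjusted p = 0.0592 by limma) or c-MYC 2 (adjusted p = 0.0631 by limma), after quantile normalization (adjusted p = 0.0808 by limma) and when all libraries were rescaled so that their FPKM had the same sum (adjusted p = 0.26 by limma).

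Both transporters fell. Slc10a1 stood at 612, 569, 509 and 605 FPKM in NL and at 30.4, 30.1 and 36.1 FPKM in c-MYC, a difference of -4.16 in log2 (standard error 0.21, adjusted p = 9.57e-08 by limma). Abcb11 stood at 56.3, 55.0, 43.8 and 53.6 FPKM in NL and at 4.21, 3.28 and 22.4 FPKM in c-MYC. The library c-MYC 3 lay well above both other c-MYC libraries and below all NL libraries. The log2 fold change of Abcb11 was -2.94 (standard error 0.58, adjusted p = 0.00333 by limma) and was -3.81 without c-MYC 3. The library c-MYC 3 was also the highest of its group for 7 of the 9 genes, and c-MYC 2 was the highest for the other 2, Cyp7a1 and Cyp8b1.

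**Figure D1:**
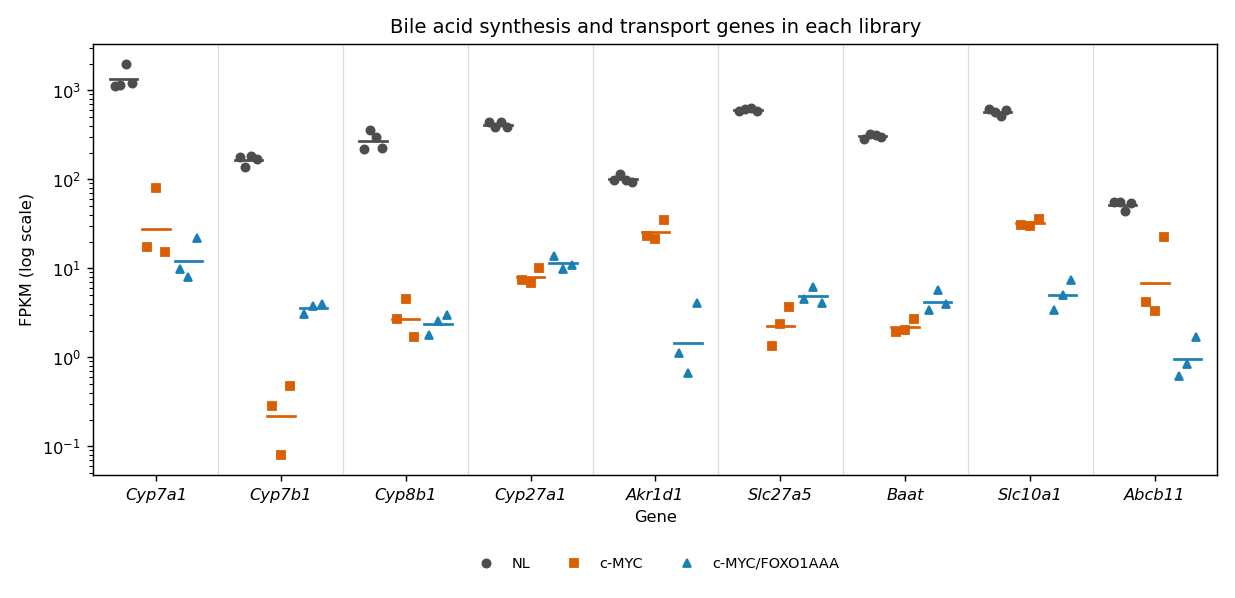
FPKM on a log scale of the 9 bile acid genes in each library of NL (circles), c-MYC (squares) and c-MYC/FOXO1AAA (triangles), with short lines at the mean of the log values of each group. Every NL library lies above every tumor library for each gene. All c-MYC/FOXO1AAA libraries lie above all c-MYC libraries for Cyp7b1, Slc27a5 and Baat, as for 32.7% of all genes. They lie below them for Akr1d1, Slc10a1 and Abcb11, as for 30.7% of all genes. Slc27a5 and Baat were not called.

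In c-MYC/FOXO1AAA tumors the 9 bile acid genes were again all lower than in NL, where 26.6% of all genes were called lower and 57.8% were called in either direction. The libraries of the 2 groups did not overlap for any of the 9, with c-MYC/FOXO1AAA below NL, as for 36% of all genes. This comparison uses the same NL libraries as the first. The log2 fold changes lay between -6.96 for Slc27a5 and -5.16 for Cyp27a1, with limma adjusted p from 1.12e-09 to 1.13e-05, and their median was -6.17 beside 0.21 over all genes. The levels that were left lay in a narrow range, between 0.817% of the NL mean for Slc27a5 and 2.82% for Cyp27a1. In c-MYC the range ran from 0.167% for Cyp7b1 to 26.4% for Akr1d1. The SD of the 9 log2 fold changes against NL was 0.65 in c-MYC/FOXO1AAA and 2.43 in c-MYC, which describes these groups and was not tested.

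Genes of mature hepatocytes outside bile acid metabolism were measured beside these values. Of 9 zonation enzymes, which mark the periportal or pericentral hepatocytes of the adult liver, all 9 were lower than in NL in both tumor groups, beside 23.6% of all genes in c-MYC and 26.6% in c-MYC/FOXO1AAA. They were left at 0.563% to 2.36% of the NL mean in c-MYC/FOXO1AAA and at 0.0691% to 29.7% in c-MYC. The SDs of their log2 fold changes against NL were 0.60 and 3.53, in the same order. Cyp2e1, a pericentral enzyme, stood at 9.81, 2.82 and 27.5 FPKM in c-MYC and at 58.0, 85.7 and 46.9 FPKM in c-MYC/FOXO1AAA, beside 6625 to 8720 FPKM in NL. Ass1, a periportal enzyme of the urea cycle, was left at 29.7% of the NL mean in c-MYC and at 1.61% in c-MYC/FOXO1AAA. Of 6 secreted hepatocyte proteins, among them Alb, all 6 were lower than in NL in both tumor groups, beside the same shares of all genes. They were left at 1.29% to 4.82% in c-MYC/FOXO1AAA and at 1.94% to 28.9% in c-MYC. The SDs of their log2 fold changes against NL were 0.77 and 1.46, in the same order. The part of hepatocyte content in the bile acid result was not tested.

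**Figure D2:**
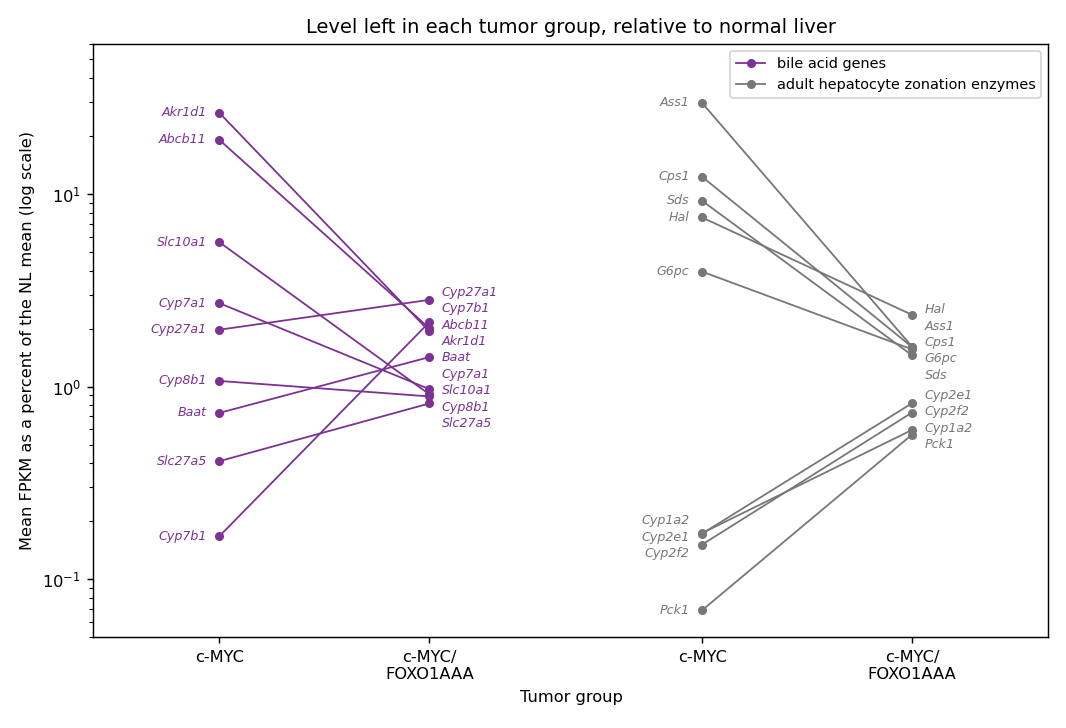
Mean FPKM of the c-MYC group and the c-MYC/FOXO1AAA group as a percent of the NL mean, on a log scale, with 1 line for each of the 9 bile acid genes (left) and each of 9 zonation enzymes of adult hepatocytes (right). The bile acid genes spread from 0.167% to 26.4% in c-MYC and lie between 0.817% and 2.82% in c-MYC/FOXO1AAA, and the zonation enzymes run from 0.0691% to 29.7% in c-MYC and from 0.563% to 2.36% in c-MYC/FOXO1AAA.

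The comparison of the tumor groups asked what FOXO1AAA adds to c-MYC. It split the bile acid genes. Cyp7b1 was higher in c-MYC/FOXO1AAA, Akr1d1, Slc10a1 and Abcb11 were lower, and 5 genes were not called. Among all genes tested 28.7% were called, with 15.9% higher and 12.7% lower. The median log2 fold change of the 9 genes was -0.19, beside 0.03 over all genes, and it turned to 0.17 without c-MYC 2 and to 0.03 without c-MYC/FOXO1AAA 1.

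Cyp7b1 stood at 3.09, 3.76 and 4.01 FPKM in c-MYC/FOXO1AAA, from 162, 240 and 168 reads, beside the 0.281, 0.0792 and 0.482 FPKM of c-MYC. All 3 c-MYC/FOXO1AAA libraries lay far above all 3 c-MYC libraries and far below NL. The log2 difference was 4.03 (standard error 0.51, adjusted p = 0.000208 by limma), and without c-MYC 2 it was 3.29. The pooled reads alone gave a ratio of 15.8 with a 95% interval from 10.9 to 24.0, which again covers the counting error of the c-MYC reads only. The mean level in c-MYC/FOXO1AAA was 2.16% of the NL mean.

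Akr1d1 stood at 1.13, 0.664 and 4.03 FPKM in c-MYC/FOXO1AAA, from 72, 50 and 211 reads, beside 21.3 to 35.0 FPKM in c-MYC. Its log2 ratio was -4.16 (standard error 0.52, adjusted p = 0.000179 by limma), and without c-MYC/FOXO1AAA 3, the highest library, it was -4.90. Slc10a1 stood at 3.42, 4.97 and 7.32 FPKM in c-MYC/FOXO1AAA, beside 30.1 to 36.1 FPKM in c-MYC. Its difference from c-MYC was -2.69 in log2 (standard error 0.22, adjusted p = 1.63e-05 by limma). Abcb11 stood at 0.621, 0.836 and 1.69 FPKM in c-MYC/FOXO1AAA, beside 3.28 to 22.4 FPKM in c-MYC. On the log2 scale it differed from c-MYC by -2.82 (standard error 0.62, adjusted p = 0.011 by limma), and without c-MYC 3 it was -1.96 (limma adjusted p = 0.00804). The uptake transporter and the export pump of conjugated bile acids were thus both lower with FOXO1AAA than with c-MYC alone.

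The 5 genes that were not called had intervals of different width. For Cyp7a1 the c-MYC/FOXO1AAA libraries stood at 9.95, 8.01 and 22.0 FPKM, and the log2 fold change against c-MYC was -1.19 with a 95% interval from -2.50 to 0.12 (limma adjusted p = 0.425). Without c-MYC 2 it was -0.43. For Cyp8b1 they stood at 1.77, 2.58 and 3.02 FPKM, with a log2 fold change of -0.19 and an interval from -0.95 to 0.58 (limma adjusted p = 1), and the sign turned when c-MYC 2 or c-MYC/FOXO1AAA 1 was left out. The libraries of both genes of the classic route overlapped between the tumor groups, and both intervals hold changes above 1.5-fold as well as 0. For Cyp27a1 the libraries stood at 13.8, 9.95 and 11.004 FPKM, with a log2 fold change of 0.52 and an interval from 0.16 to 0.88 (limma adjusted p = 1 against the 1.5-fold threshold).

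The conjugation genes did not overlap between the tumor groups although they missed the threshold. Slc27a5 stood at 4.47, 6.20 and 4.13 FPKM in c-MYC/FOXO1AAA, above the 1.34, 2.39 and 3.69 FPKM of c-MYC, which differs by 1.09 in log2 with an interval from 0.43 to 1.76 (limma adjusted p = 0.175). Baat stood at 3.37, 5.66 and 3.93 FPKM, above the 1.95, 2.03 and 2.68 FPKM of c-MYC, which differs by 0.94 in log2 with an interval from 0.53 to 1.35 (limma adjusted p = 0.125). Libraries that did not overlap were found for 32.7% of all genes with c-MYC/FOXO1AAA above c-MYC, and for 30.7% with c-MYC/FOXO1AAA below it. Against no fold-change threshold both were called higher (limma adjusted p = 0.00997 for Slc27a5 and 0.00131 for Baat), as was Cyp27a1 (0.0178). Without c-MYC 3 both were called at the 1.5-fold threshold as well (limma adjusted p = 0.012 for Slc27a5 and 0.0493 for Baat), as was Baat without c-MYC/FOXO1AAA 1 (0.0383).

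Within the c-MYC/FOXO1AAA group, the libraries did not rank alike for all genes. The library c-MYC/FOXO1AAA 3 was the highest of the 3 for 6 of the 9 bile acid genes, including the 3 that were lower than in c-MYC. Slc27a5 and Baat were highest in c-MYC/FOXO1AAA 2, as were the zonation enzymes Cyp2e1, Cyp1a2 and Pck1. The zonation enzymes Hal, Sds, G6pc, Cps1 and Ass1 were instead highest in c-MYC/FOXO1AAA 3, and Cyp2f2 was highest in c-MYC/FOXO1AAA 1. Ass1 was left at 1.61% of the NL mean in this group, with an SD of 26.1 FPKM around a mean of 32.9 FPKM.

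The upstream sequences of the genes that were lower with FOXO1AAA are shown because FOXO1 binds DNA directly, through the motif GTAAACA and the related core CAAAACA. The 250 bases before the transcription start were taken from RefSeq on GRCm38.p6, where 6 of the 10 genes had an entry (Cyp8b1, Cyp27a1, Akr1d1, Hsd3b7, Slc10a1 and Abcb11), with 2 starts for Slc10a1. Capitals mark matches to any of 4 motifs searched on both strands. These were both FOXO motifs, the E-box CACGTG that MYC binds, and the site AAGGTCA that LRH-1 binds. The sequences are written 5′ to 3′ on the strand of the gene. Slc10a1 has them at chr12:80968706-80968955 and chr12:80968080-80968329 on the minus strand, Akr1d1 at chr6:37529923-37530172 on the plus strand and Abcb11 at chr2:69342617-69342866 on the minus strand.
Slc10a1, first start: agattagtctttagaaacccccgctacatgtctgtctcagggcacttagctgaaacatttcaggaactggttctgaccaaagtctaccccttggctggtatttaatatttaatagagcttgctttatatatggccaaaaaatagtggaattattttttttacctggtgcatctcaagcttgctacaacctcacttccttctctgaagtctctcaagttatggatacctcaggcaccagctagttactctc
Slc10a1, second start: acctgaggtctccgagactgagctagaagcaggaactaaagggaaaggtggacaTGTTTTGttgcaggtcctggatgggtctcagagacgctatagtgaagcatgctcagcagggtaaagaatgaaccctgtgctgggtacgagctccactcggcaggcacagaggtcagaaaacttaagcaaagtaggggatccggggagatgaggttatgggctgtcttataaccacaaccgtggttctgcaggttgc
Akr1d1: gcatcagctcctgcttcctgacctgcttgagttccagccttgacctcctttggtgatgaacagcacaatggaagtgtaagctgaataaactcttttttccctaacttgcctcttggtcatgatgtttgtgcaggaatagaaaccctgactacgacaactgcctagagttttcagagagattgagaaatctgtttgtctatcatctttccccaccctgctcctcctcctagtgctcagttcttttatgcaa
Abcb11: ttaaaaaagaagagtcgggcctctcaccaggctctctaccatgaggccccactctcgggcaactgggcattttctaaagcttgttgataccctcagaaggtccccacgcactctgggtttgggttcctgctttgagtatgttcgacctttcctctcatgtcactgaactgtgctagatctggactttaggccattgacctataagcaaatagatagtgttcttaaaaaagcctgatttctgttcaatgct

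The 7 upstream windows held a single match, which is the CAAAACA core 190 to 196 bases before the second Slc10a1 start. It lies on the strand opposite to the gene, so the printed capitals are its reverse complement. Of 32851 windows of the same length in the whole table, 5.56% held this core, 3.17% the other FOXO motif, 6.02% the E-box and 4.08% the LRH-1 site. A match describes letters only, and the 6 windows without one say only that these letters are not there.

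Further genes of the pathway were described from lists. Of 9 tested synthesis enzymes outside the 10, 8 were lower in c-MYC than in NL and none was higher (23.6% and 24.5% of all genes), with a median log2 fold change of -2.91 beside 0.08 over all genes. In c-MYC/FOXO1AAA against c-MYC, 2 were higher and 3 lower (15.9% and 12.7% of all genes), with a median of -0.69 beside 0.03, and against NL 8 were lower (26.6% of all genes), with a median of -4.58 beside 0.21. Cyp2a12, which hydroxylates bile acids in mouse liver, stood at 506 to 559 FPKM in NL, at 1.08, 1.18 and 3.41 FPKM in c-MYC and at 8.67, 10.5 and 5.74 FPKM in c-MYC/FOXO1AAA. It was higher with FOXO1AAA than with c-MYC alone by a log2 fold change of 2.31 (standard error 0.38, adjusted p = 0.0029 by limma). Cyp39a1, which hydroxylates 24-hydroxycholesterol on the way to bile acids, stood at 2.92 to 4.13 FPKM in NL, at 0.199, 0.578 and 0.716 FPKM in c-MYC and at 3.19, 3.94 and 5.32 FPKM in c-MYC/FOXO1AAA. Its level with FOXO1AAA overlapped that of NL (log2 fold change 0.32, interval from -0.56 to 1.19, limma adjusted p = 0.963), which none of the 9 bile acid genes did. Under the same FPKM total it was called higher than NL (1.41, limma adjusted p = 0.0435).

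The remaining named enzymes did not share this direction. Cyp2c70, which makes the muricholic acids of the mouse, stood at 2271 to 3031 FPKM in NL, at 32.1, 56.0 and 54.0 FPKM in c-MYC and at 26.7, 38.9 and 32.2 FPKM in c-MYC/FOXO1AAA. The tumor groups overlapped, and their log2 difference was -0.51 (adjusted p = 1 by limma). Cyp46a1, a cholesterol 24-hydroxylase best known from the brain, was low, at 3.97 to 8.07 FPKM in NL and 0.131 to 0.236 FPKM in c-MYC, from 3 to 7 reads. Acox2, a peroxisomal oxidase that shortens the side chain, stood at 34.2, 73.3 and 52.6 FPKM in c-MYC and at 5.59, 9.63 and 25.3 FPKM in c-MYC/FOXO1AAA, beside 230 to 305 FPKM in NL. It was lower with FOXO1AAA by a log2 fold change of -2.20 (standard error 0.46, adjusted p = 0.0123 by limma), and by -2.79 without c-MYC/FOXO1AAA 3, with the call lost at a 2-fold threshold (adjusted p = 0.0663 by limma). Its call in c-MYC against NL (-2.39, adjusted p = 0.00271 by limma) was lost under the same FPKM total (adjusted p = 0.0531 by limma).

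Of 12 tested transporters of bile acids and biliary lipids outside the 10, 9 were lower and 1 was higher in c-MYC than in NL (23.6% and 24.5% of all genes), with a median log2 fold change of -5.86 beside 0.08. In c-MYC/FOXO1AAA against c-MYC, 4 were higher and 3 lower (15.9% and 12.7% of all genes), with a median of 0.53 beside 0.03. Against NL 10 were lower and 1 was higher (26.6% and 31.2% of all genes), with a median of -5.60 beside 0.21. Slco1a1, an organic anion transporter of the sinusoidal membrane, stood at 303 to 340 FPKM in NL, at 0.393, 0.180 and 0.937 FPKM in c-MYC and at 3.61, 5.31 and 2.94 FPKM in c-MYC/FOXO1AAA. It was higher with FOXO1AAA by a log2 fold change of 3.24 (standard error 0.47, adjusted p = 0.000684 by limma), and by 3.85 without c-MYC 3. Abcg5, which exports sterols into bile together with Abcg8, stood at 0.120, 0.0955 and 0.444 FPKM in c-MYC, from 3, 2 and 17 reads, and at 0.620, 1.55 and 1.20 FPKM in c-MYC/FOXO1AAA. The difference of 2.61 on the log2 scale (standard error 0.52, adjusted p = 0.00673 by limma) was lost after quantile normalization (limma adjusted p = 0.0661) and with a pseudocount of 1 (limma adjusted p = 0.411), and it was 3.29 without c-MYC 3. Slc10a2, a bile acid uptake carrier best known from the ileum, had 638 to 734 reads in each NL library, 0, 0 and 3 reads in c-MYC and 30, 61 and 16 reads in c-MYC/FOXO1AAA.

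The basolateral export pumps differed in direction. Abcc4 was the 1 transporter that was higher in c-MYC than in NL. It stood at 0.8286, 0.262, 0.254 and 0.255 FPKM in NL, at 5.44, 12.3 and 7.30 FPKM in c-MYC and at 1.56, 1.69 and 1.70 FPKM in c-MYC/FOXO1AAA. The log2 difference was 4.52 (standard error 0.44, adjusted p = 1.09e-05 by limma) in c-MYC against NL and -2.26 (standard error 0.47, adjusted p = 0.0101 by limma) in c-MYC/FOXO1AAA against c-MYC, where a 2-fold threshold gave an adjusted p of 0.0549 by limma. Abcc3 stood at 46.1 to 66.9 FPKM in NL, at 3.31, 3.81 and 4.49 FPKM in c-MYC and at 1.82, 3.93 and 2.13 FPKM in c-MYC/FOXO1AAA. It was lower in c-MYC than in NL (log2 fold change -3.89, limma adjusted p = 5.41e-07), and the tumor groups overlapped.

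**Figure D3:**
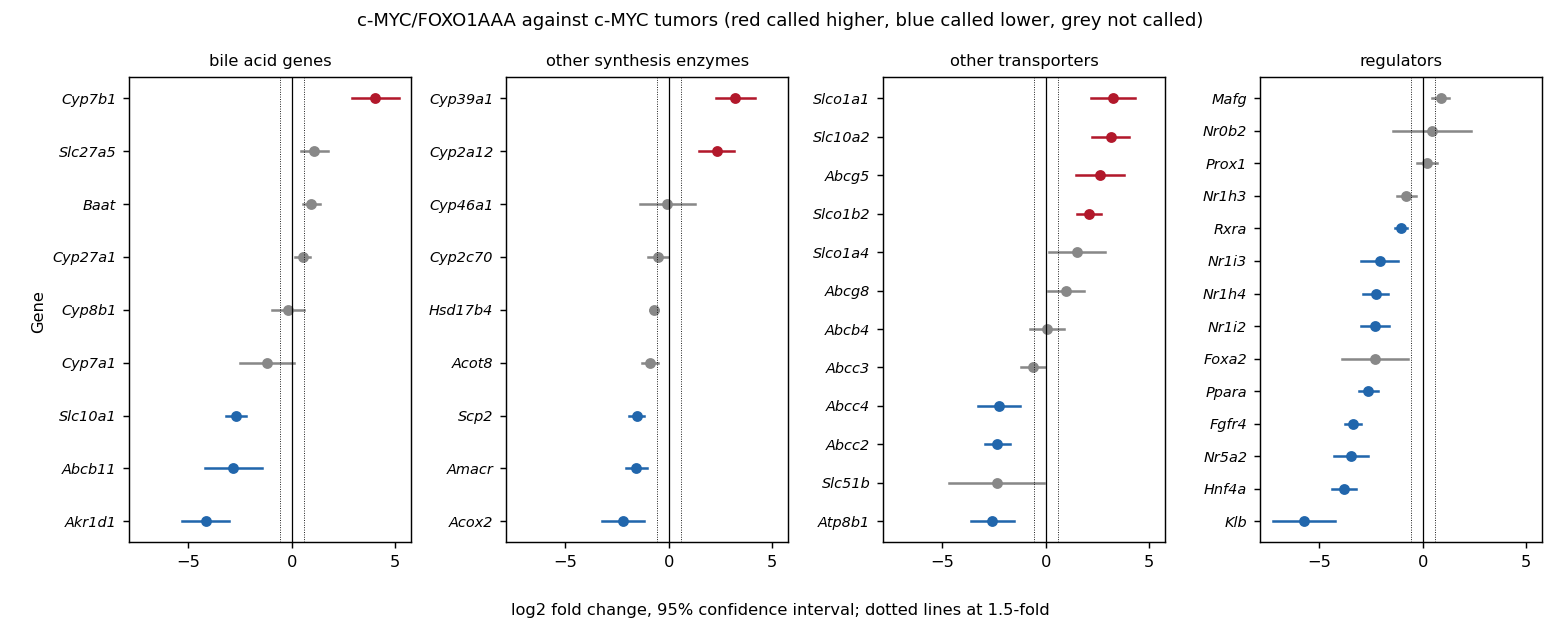
Log2 fold change of c-MYC/FOXO1AAA against c-MYC with its 95% confidence interval for the 9 bile acid genes, 9 other synthesis enzymes, 12 other transporters and 14 regulators. Red genes were called higher, blue lower and gray not called, and the dotted lines mark 1.5-fold. The bile acid genes, other enzymes and transporters hold calls in both directions, whereas all 9 regulators that were called are lower.

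Regulators of bile acid synthesis and transport were called in 1 direction between the tumor groups. Of 14 tested, 9 were lower with FOXO1AAA than with c-MYC alone and none was higher, beside 12.7% lower and 15.9% higher of all genes, with a median log2 fold change of -2.28 beside 0.03 over all genes. In c-MYC against NL, 9 were lower and none higher (23.6% and 24.5% of all genes), with a median of -2.11 beside 0.08. After rescaling to the same FPKM total, however, Klb (2.58, limma adjusted p = 0.00905) and Prox1 (1.09, limma adjusted p = 0.0378) were called higher. In c-MYC/FOXO1AAA against NL, 12 were lower (26.6% of all genes), with a median of -4.44 beside 0.21. There the same rescaling again gave a higher call for Prox1 (1.47, limma adjusted p = 0.00202), a gene picked after its values were seen. Nr1h4 (FXR), the bile acid receptor that activates Abcb11, stood at 64.8 to 75.5 FPKM in NL, at 10.6, 13.5 and 16.4 FPKM in c-MYC and at 1.67, 3.09 and 4.04 FPKM in c-MYC/FOXO1AAA. The log2 difference was -2.43 (standard error 0.26, adjusted p = 6.54e-05 by limma) in c-MYC against NL and -2.27 (standard error 0.28, adjusted p = 0.000376 by limma) in c-MYC/FOXO1AAA against c-MYC. Nr0b2 (SHP), which FXR induces and which represses Cyp7a1, stood at 83.4, 27.5, 31.2 and 72.4 FPKM in NL, at 0.730, 0.151 and 2.41 FPKM in c-MYC and at 0.822, 0.696 and 1.19 FPKM in c-MYC/FOXO1AAA. It was lower in c-MYC than in NL, with a log2 fold change of -6.21 (standard error 0.78, adjusted p = 7.99e-05 by limma) that ran from -7.16 without c-MYC 3 to -5.17 without c-MYC 2, and it overlapped between the tumor groups.

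Hnf4a and Nr5a2, both activators of hepatocyte genes, were lower with FOXO1AAA. Neither was called in c-MYC against NL, although every c-MYC library lay below every NL library for both. Hnf4a, a nuclear receptor that maintains the hepatocyte state, stood at 164 to 197 FPKM in NL, at 83.7, 112 and 87.3 FPKM in c-MYC and at 4.67, 5.72 and 11.1 FPKM in c-MYC/FOXO1AAA. Its log2 ratio was -3.81 (standard error 0.27, adjusted p = 3.13e-06 by limma) in c-MYC/FOXO1AAA against c-MYC and -0.97 (limma adjusted p = 0.145) in c-MYC against NL. The difference between c-MYC and NL was called lower with only these 2 groups in the fit (limma adjusted p = 0.015), without c-MYC/FOXO1AAA 3 (limma adjusted p = 0.0156) and with no fold threshold (limma adjusted p = 0.00476), and it was -0.04 under the same FPKM total. Nr5a2 (LRH-1), an activator of Cyp7a1 and Cyp8b1, stood at 12.5 to 14.1 FPKM in NL, at 7.36, 10.8 and 7.70 FPKM in c-MYC and at 0.488, 0.598 and 1.61 FPKM in c-MYC/FOXO1AAA. Its log2 fold change between the tumor groups was -3.45 (standard error 0.37, adjusted p = 6.66e-05 by limma). Against NL it was -0.61 in c-MYC, not called, and turned to 0.32 after rescaling to the same FPKM total.

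The receptor that carries the intestinal signal against Cyp7a1 was lower as well. Klb (β-Klotho), the coreceptor for FGF15, stood at 8.08 to 10.2 FPKM in NL, at 27.9, 35.9 and 24.4 FPKM in c-MYC and at 0.446, 0.175 and 2.06 FPKM in c-MYC/FOXO1AAA. The c-MYC libraries lay above all NL libraries without a call (log2 fold change 1.66, limma adjusted p = 0.119). This gene was called higher with only the 2 groups in the fit (limma adjusted p = 0.000175) and without c-MYC/FOXO1AAA 3 (limma adjusted p = 0.00496) or c-MYC/FOXO1AAA 2 (limma adjusted p = 0.0355). Between the tumor groups its log2 fold change was -5.74 (standard error 0.67, adjusted p = 9.6e-05 by limma), and it ran from -6.70 without c-MYC/FOXO1AAA 3 to -4.92 without c-MYC/FOXO1AAA 2. Fgfr4, its partner receptor, was picked after its values were seen, and it stood at 17.3, 20.04 and 15.04 FPKM in c-MYC and at 1.23, 1.88 and 2.03 FPKM in c-MYC/FOXO1AAA.

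Nr1i3 and Foxa2 were already lower than NL in c-MYC. Nr1i3 (CAR), a xenobiotic receptor, stood at 27.2 to 30.4 FPKM in NL, at 1.59, 1.36 and 1.12 FPKM in c-MYC and at 0.256, 0.178 and 0.697 FPKM in c-MYC/FOXO1AAA, from 6, 4 and 17 reads. Its log2 fold change between the tumor groups was -2.08 (standard error 0.40, adjusted p = 0.00798 by limma), and the call was lost with a pseudocount of 1 (limma adjusted p = 0.308) and at a 2-fold threshold (limma adjusted p = 0.0544). Foxa2, a pioneer factor of the liver, stood at 22.5, 31.0, 42.9 and 24.6 FPKM in NL and at 1.82, 11.4 and 4.71 FPKM in c-MYC, a difference of -2.67 in log2 (standard error 0.67, adjusted p = 0.014 by limma) whose call was lost without c-MYC 1 (limma adjusted p = 0.0665) and under the same FPKM total (-1.74, limma adjusted p = 0.095) and that was -3.32 without c-MYC 2. In c-MYC/FOXO1AAA against c-MYC, Foxa2 was not called (limma adjusted p = 0.0657) and was called lower without c-MYC/FOXO1AAA 3 (-3.09, limma adjusted p = 0.00752), without c-MYC 1 (-2.98, limma adjusted p = 0.0171), after quantile normalization (limma adjusted p = 0.0241), with no fold threshold (limma adjusted p = 0.019) and with the replicate number as a block (limma adjusted p = 0.0466).

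**Figure D4:**
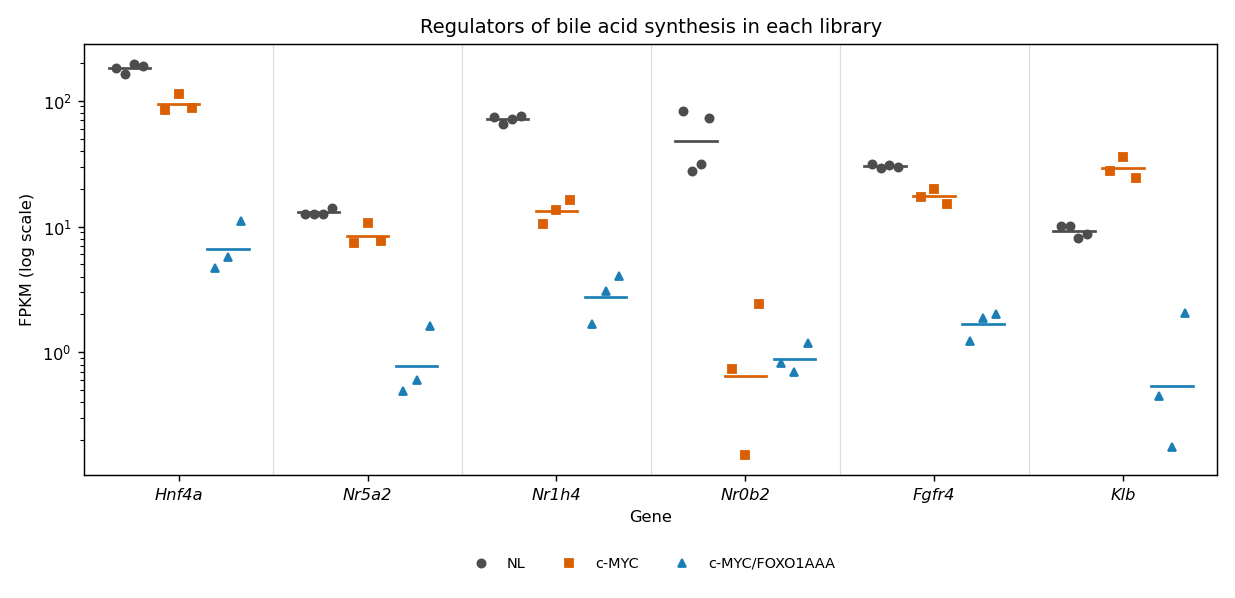
FPKM on a log scale of 6 regulators of bile acid synthesis in each library of NL (circles), c-MYC (squares) and c-MYC/FOXO1AAA (triangles), with short lines at the mean of the log values of each group. Hnf4a, Nr5a2, Nr1h4, Fgfr4 and Klb lie lower in every c-MYC/FOXO1AAA library than in every c-MYC library, and Nr0b2 overlaps between the tumor groups. Of all 14 regulators tested, 10 lay wholly lower and 1 wholly higher, beside 30.7% and 32.7% of all genes.

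Markers of other liver cells moved with the groups. Stellate cell and fibroblast markers, 5 in all, summed to 74.4 to 95.1 FPKM in NL and 6.57 to 25.2 in c-MYC. With FOXO1AAA their sum was 308 to 373 FPKM. Relative to c-MYC alone, FOXO1AAA tumors had higher calls for 3 of these markers (15.9% of all genes). In NL and with FOXO1AAA the sum rests mostly on Dcn, with means of 69.8, 4.59 and 236 FPKM in NL, c-MYC and c-MYC/FOXO1AAA. Lrat was left at 2.51% of the NL mean in c-MYC and 7.21% with FOXO1AAA. It was not called between the tumor groups (limma adjusted p = 0.128). Against NL, FOXO1AAA tumors had 3 of the 5 called higher and 1, Lrat, lower (31.2% and 26.6% of all genes). The summed level of 6 cholangiocyte markers of a list of 7 was 30.9 to 36.5 FPKM in NL, 26.1 to 44.8 in c-MYC and 32.7 to 40.8 in c-MYC/FOXO1AAA. Its members went in opposite directions. Of 5 tested, 2 were higher and 1 was lower in c-MYC than in NL (24.5% and 23.6% of all genes). Between the tumor groups 2 were higher and 2 lower with FOXO1AAA (15.9% and 12.7% of all genes). Means in NL, c-MYC and c-MYC/FOXO1AAA were 1.24, 15.1 and 1.99 FPKM for Epcam and 19.7, 1.55 and 25.5 FPKM for Spp1. For 7 Kupffer cell and macrophage markers the summed level was 197 to 346, 95.9 to 137 and 47.0 to 80.0 FPKM in the same order of groups. For 5 endothelial markers it was 41.4 to 56.3, 6.61 to 11.2 and 4.61 to 8.14 FPKM. The endothelial sum rests in NL mostly on Clec4g, with means of 33.6, 0.227 and 0.571 FPKM. Stab2 and Kdr also had lower means in both tumor groups than in NL. Pecam1, with means of 4.39, 5.70 and 3.59 FPKM, was not called in c-MYC against NL. The Kupffer cell sum rests in NL on Clec4f, with means of 208, 4.66 and 18.1 FPKM, which was higher with FOXO1AAA than with c-MYC alone (2.20 in log2, limma adjusted p = 0.0237). This Clec4f call was lost without c-MYC/FOXO1AAA 1 (limma adjusted p = 0.0541) or c-MYC/FOXO1AAA 2 (limma adjusted p = 0.087). It was also lost with the replicate number as a block (limma adjusted p = 0.0512) and at a 2-fold threshold (limma adjusted p = 0.109). Cd5l, of the same list, was lower with FOXO1AAA than with c-MYC alone (-2.64 in log2, limma adjusted p = 0.000598). Its means were 33.0, 64.2 and 10.8 FPKM, and it was the largest part of the sum in c-MYC. The other 5 markers of this list were not called between the tumor groups. Cd68, a general macrophage marker, was higher than NL in both tumor groups, by 2.34 in c-MYC and 1.73 in c-MYC/FOXO1AAA on the log2 scale. For 2 lymphocyte markers of a list of 3 the summed level was 1.32 to 2.13, 2.002 to 2.19 and 8.29 to 12.5 FPKM. The higher sum with FOXO1AAA was that of the B cell marker Cd79a, with a mean of 9.52 FPKM beside 0.217 FPKM in c-MYC (5.42 in log2, limma adjusted p = 0.000127), while the other marker, Ptprc, had means of 1.04 FPKM with FOXO1AAA and 1.86 FPKM in c-MYC and was not called (limma adjusted p = 0.391). Dcn, Lrat, Epcam, Spp1, Clec4g, Pecam1, Stab2, Kdr, Clec4f, Cd5l, Cd68 and Cd79a were singled out after their values were seen. Of 3 ileal genes only Slc10a2 had a row. Hepatocyte markers summed to 84619 to 94782 FPKM for the 6 secreted proteins in NL, to 5677 to 8933 in c-MYC and to 1220 to 2347 in c-MYC/FOXO1AAA, and for the 9 zonation enzymes to 13471 to 15128, 682 to 808 and 106 to 161 FPKM. No marker of these lists was at 0 reads in all libraries of a group. The part of these cell types in the differences between the tumor groups was not tested.

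Genes outside the pathway with the most similar pattern were Sult1b1, Sult1a1, Aph1c, Abhd6 and Fxyd1. Their Pearson's r with the mean centered log2 profile of the 9 bile acid genes was 0.997 to 0.998 over the 10 libraries. The libraries form 3 groups, and the distance between NL and the tumors sets these values. Among the 9 genes themselves, r with the mean profile, which includes the gene, ran from 0.803 for Akr1d1 and 0.886 for Cyp7b1 to 0.988 for Cyp8b1.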

How the data were processed

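RNA was sequenced from 4 normal livers, 3 c-MYC tumors and 3 c-MYC/FOXO1AAA tumors, and groups were taken from the sample labels. The deposited table holds log2 FPKM per gene, which the authors made in R with edgeR from read counts. The submitters' processing notes name FastQC 0.11.7 and GRCm38, while the aligner and the counter are not given in the sources used here. The libraries were made by polyA capture or removal of ribosomal RNA, and which of these applies is not stated. Of 17069 entries, 372 without a symbol or values were left out. No column of the authors' own comparisons was used.

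The log2 values were shown to be whole reads plus an added prior count of 2, scaled by library size and gene length, and for 99.994% of genes 1 single length gave whole reads in all libraries within 0.0005 reads. Read counts serve to show depth, from 13123712 to 20547739 per library, and were given no count test.

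Genes with at least 1 FPKM in at least 3 libraries were tested on the deposited log2 scale with limma 3.58.1 in R 4.3.3, with all 3 groups in 1 fit, a mean-variance trend, robust variances and a 1.5-fold threshold (treat). Adjusted p-values are Benjamini-Hochberg values over all 14017 genes, two-sided. The 3 comparisons share libraries, so they are not independent. The fit was tested on simulated data. A 95% exact Poisson interval was taken for the Cyp7b1 reads.

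The genes and lists were chosen with earlier results of these data known. All bile acid genes were described, as were, from each of 3 pathway lists, the 3 called genes with the largest change in c-MYC against NL and between the tumor groups, 7 genes fixed by name (Nr1h4, Nr0b2, Nr5a2, Hnf4a, Abcc3, Abcc4 and Cyp2c70), and the 5 genes with the most similar profile. Alternatives covered the pseudocount, the filter on low values, the scaling, the threshold, the variance model, the groups in the fit, the replicate number as a block and each library left out. A gene of the regulator list is not reported here, and counts over that list leave it out.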

Additional observations from a re-analysis of the deposited data

Results flagged for a closer look

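In 4 of 27 normal liver groups tested, 1 library stood apart from the other 3 by more than Dixon's 95% limit for 4 samples, and chance alone flags about 1 in 20 groups. Cyp7a1 was 1996 FPKM in NL 3, beside 1117 to 1223 FPKM in the other NL libraries. Cyp39a1 was 4.13 FPKM in NL 4, beside 2.92 to 3.09 FPKM. Abcc4 was 0.8286 FPKM in NL 1, beside 0.254 to 0.262 FPKM. Nr5a2 was 14.1 FPKM in NL 4, beside 12.5 to 12.6 FPKM.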

How the results depend on the processing

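Over 27 fold changes of the 9 bile acid genes and 22 alternatives, 580 of 594 values kept their direction and their side of the threshold, 5 lost the call, 7 gained one and 2 turned. Akr1d1 in c-MYC against NL lost its call after rescaling to the same FPKM total (-1.03), after quantile normalization (-1.67) and at a 2-fold threshold (adjusted p = 0.106 by limma). Without 1 library its log2 fold change ran from -2.18 to -1.82. Cyp8b1 between the tumor groups turned to 0.17 without c-MYC 2 and to 0.03 without c-MYC/FOXO1AAA 1, and was -0.54 without c-MYC 3. Baat gained a call after rescaling to the same FPKM total (1.11). Between the tumor groups, 4 of the 9 genes were called, 7 with no fold threshold, and 4 to 6 without 1 library. Among all genes, calls rose from 6740 to 10432 in c-MYC against NL and from 4016 to 7688 between the tumor groups with no fold threshold. Genes with a mean FPKM of at least 5 numbered 8919 in place of 14017, and of these 2280 were called between the tumor groups and 5211 in c-MYC/FOXO1AAA against NL (8099 without this filter). The same FPKM total moved the median of all genes from 0.08 to 1.01, from 0.03 to 0.20 and from 0.21 to 1.31 and the share of calls that were higher from 51.0% to 78.8%, from 55.5% to 63.6% and from 54.0% to 79.5%. The median of the bile acid genes minus that of all genes was -5.76, -0.21 and -6.38, which this rescaling cannot move, and over all alternatives it ran from -6.44 to -5.30, from -0.55 to 0.15 and from -7.04 to -6.03. Synthesis enzymes called between the tumor groups fell from 5 to 3 at a 2-fold threshold. Same-numbered libraries did not deviate together (r from -0.04 to 0.027), so the numbers do not pair the samples. With the replicate block 9, 4 and 9 of the bile acid genes were called and 6407, 3852 and 7810 of all genes. Apart from the smaller number of genes tested, the cause of these changes was not tested. Low reads limit Cyp7b1 in c-MYC, where a pseudocount of 1 gave -7.05 against NL and 1.86 between the tumor groups.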
